A study of Mus musculus with 6 samples.

Results

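The genes that control the G1 phase of the cell cycle were followed in 6 neurofibromas of mice, which are benign nerve sheath tumours. The 10 members were the D cyclins Ccnd1, Ccnd2 and Ccnd3, the kinases Cdk4 and Cdk6, the retinoblastoma gene Rb1, and the inhibitors Cdkn1a, Cdkn1b, Cdkn2a and Cdkn2b. They were found by symbol among the 24421 rows of the count table, and all 10 had a row. All 6 tumours came from C57BL/6J mice carrying floxed Nf1 (Nf1fl/fl) and DhhCre. Nf1 encodes a negative regulator of Ras, and DhhCre drives the recombinase from the Dhh promoter, active in the Schwann cell lineage, so other cells of the tumour keep Nf1. A Mir-155 knockout was added in the 3 tumours called miR155KO_Nf1KO, numbered MiRNC149, MiRNC640 and MiRNC670. It was absent from the 3 called Nf1KO, numbered Nf803, Nf809 and Nf827. No drug was given, the sources used here state no ages, and the stated purpose was to look for miR-155 targets through expression differences. The labels do not say whether each tumour is from its own mouse. By sex-linked reads each group held both sexes, so its tumours were not all from the same mouse. The p-values measure only how far these samples spread, which may not be the full spread between mice.

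D cyclins are made in response to growth signals such as the Ras and ERK pathway. They bind Cdk4 or Cdk6, and the active kinase phosphorylates the retinoblastoma protein, which then releases E2F factors that switch on genes of DNA replication. Inhibitors of the INK4 class, p16 from Cdkn2a and p15 from Cdkn2b, block Cdk4 and Cdk6, whereas p21 from Cdkn1a and p27 from Cdkn1b also act on Cdk2. Cdkn2a encodes p19Arf as well, which stabilises p53, and loss of its human counterpart marks atypical nerve sheath tumours.

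Tumours without miR-155 had lower transcript levels of cyclin D1, Cdk6 and p15. Ccnd1 fell 2.57-fold, Cdk6 2.36-fold and Cdkn2b 3.23-fold, each called with edgeR (quasi-likelihood, adjusted by Benjamini-Hochberg over 15604 genes). Of all genes tested, 4.74% were called lower. Cdk6 was close to the threshold (edgeR adjusted p = 0.0476). Each of these calls was lost in most of the 6 edgeR fits without 1 tumour. Ccnd1 and Cdkn2b were each called in 2 of these fits and Cdk6 in 1. Ccnd2 and Ccnd3 were also lower in every tumour of miR155KO_Nf1KO than in any of Nf1KO, but did not pass. Rb1 and Cdkn1a differed by less than the spread between tumours. Cdkn1b was the 1 member higher in every miR155KO_Nf1KO tumour, and it did not pass either.

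The mature miR-155-5p, from RefSeq on GRCm38.p6 (chromosome 16, 84714143 to 84714165, plus strand), is shown because its seed defines which sites were sought in the members. The capitals mark the seed, bases 2 to 8.
mmu-miR-155-5p: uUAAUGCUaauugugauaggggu
The longest annotated 3' UTR of each member was searched for the 8mer AGCATTAA and for its 7-base parts AGCATTA and GCATTAA. None of the 10 held any of these, including the 10217 bases of Cdk6, the 5173 bases of Ccnd2 and the 2676 bases of Ccnd1. Among 14021 tested genes with a 3' UTR, 14.2% held at least 1 such site and 3.47% an 8mer. The absence says only that these letters are not in these windows.

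The promoters of Cdk6 and Cdkn2b are shown because both genes fell and both have an entry in the RefSeq promoter table, which holds 7 of the 10 members (GRCm38.p6) and not Ccnd1. Each run covers 250 bases before to 50 after an annotated start, on the strand of the gene. Motifs sought on both strands were AP-1 (TGANTCA), CRE (TGACGTCA), E2F (TTTNNCGC) and the GC box (GGGCGG). The capitals mark AP-1, CRE or E2F letters, and no marked match overlaps another.
Cdk6 promoter, chr5:3343643-3343942, plus strand: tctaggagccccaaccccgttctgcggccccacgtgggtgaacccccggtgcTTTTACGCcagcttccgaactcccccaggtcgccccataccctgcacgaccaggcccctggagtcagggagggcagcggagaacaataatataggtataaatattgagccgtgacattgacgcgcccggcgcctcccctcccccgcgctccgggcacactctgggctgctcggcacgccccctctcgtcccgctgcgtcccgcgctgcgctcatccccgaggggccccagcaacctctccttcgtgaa
Cdkn2b promoter, chr4:89310983-89311282, minus strand: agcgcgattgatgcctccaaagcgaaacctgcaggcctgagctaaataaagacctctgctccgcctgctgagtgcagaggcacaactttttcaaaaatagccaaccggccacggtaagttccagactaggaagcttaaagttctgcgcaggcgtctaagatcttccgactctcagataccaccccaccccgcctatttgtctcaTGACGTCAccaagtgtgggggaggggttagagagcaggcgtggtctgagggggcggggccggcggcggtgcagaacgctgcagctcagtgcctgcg
The Cdk6 window held 1 match to the E2F letters, at -198 from the start, which 5.17% of 32851 promoter windows of the same length held. The Cdkn2b window held 1 CRE, at -46, a motif of 1.79% of windows. Neither window held the AP-1 letters (7.81% of windows). The GC box was found 1 time in the Cdkn2b window and 0 times in the Cdk6 window, against 35.7% of windows with at least 1. These matches describe the letters only.

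Column totals ran from 13061129 reads in MiRNC670 to 16333181 in Nf809, and levels are given as CPM, reads per 1000000 of the TMM-scaled library. Mir155hg, the host gene of miR-155, had 5, 3 and 1 reads in the 3 tumours labelled as knockout and 57, 66 and 71 in the others. Nf1 and Dhh did not pass (adjusted p = 0.777 and 0.925, edgeR), and the Nf1 row sums all exons, so it does not check the deletion. Of 15604 genes tested by edgeR, 4.74% were called lower and 5.22% higher in miR155KO_Nf1KO at an adjusted p under 0.05, 9.96% in all. The groups did not overlap in 16.3% of genes in each direction, 32.6% in all. Skeletal muscle markers summed to 2216 CPM in MiRNC670 and 2459 CPM in Nf809, against 12.1 to 409.5 CPM in the other tumours, so those libraries stood apart. MiRNC640 stood apart in adipocyte markers, which summed to 2175 CPM there and to 40.4 to 609.1 CPM in the others. Without MiRNC640 edgeR called 99 genes higher and 43 lower, in place of 815 and 739. This loss was not particular to MiRNC640, since without MiRNC670, without Nf803 or without Nf827 edgeR called 0 genes in either direction. Results without MiRNC670 and Nf809 together, and without MiRNC640, are given where a call differs. By counts of Xist and of Y-linked genes, MiRNC149, Nf803 and Nf827 were female and MiRNC640, MiRNC670 and Nf809 male.

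The D cyclins were led by Ccnd1 (cyclin D1; chromosome 7, 144929931 to 144939925, minus strand, GRCm38). Ccnd1 was at 472.6, 479.6 and 461.8 CPM in MiRNC149, MiRNC640 and MiRNC670, and at 1196, 883.6 and 1561 CPM in Nf803, Nf809 and Nf827. The miR155KO_Nf1KO tumours lay close together and all below the lowest Nf1KO tumour, Nf809. The means were 471.3 ± 9.003 and 1213 ± 339 CPM (SD, n = 3 each), which gave a log2 fold change of -1.36 (SE 0.20; edgeR adjusted p = 0.0211). The call was lost without MiRNC640 (edgeR adjusted p = 0.0565), MiRNC670 (0.0924), Nf803 (0.0838) or Nf827 (0.0668), with the log2 fold change between -1.41 and -1.14. DESeq2, added for these subsets after the data were seen, called Ccnd1 in all 6 of them (largest adjusted p = 1.17e-04). The annotation places 1100 exonic bases of Ccnd1 opposite another gene, and the sources used here give no strand setting for the counting.

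Ccnd2 (cyclin D2; chromosome 6) was at 77.8, 168.3 and 123.2 CPM in the miR155KO_Nf1KO tumours and at 327.3, 188.7 and 364.6 CPM in Nf803, Nf809 and Nf827. The groups did not overlap, although MiRNC640 and Nf809 were near each other. The log2 fold change was -1.25 (SE 0.33, 95% interval -2.04 to -0.47) and the edgeR adjusted p 0.0585, whereas DESeq2 called the gene (adjusted p = 0.00239). Ccnd3 (cyclin D3; chromosome 17) was at 22.7, 20.2 and 22.9 CPM against 38.1, 25.1 and 43.0 CPM. Here too Nf809 was the lowest tumour of Nf1KO and the groups were apart. The log2 fold change of Ccnd3 was -0.69 (SE 0.22, 95% interval -1.21 to -0.17), with an adjusted p of 0.0956 by edgeR and 0.0438 by DESeq2. Without Nf809 edgeR called both, at adjusted p = 0.0228 for Ccnd2 and 0.0179 for Ccnd3, the only 1 of 6 such fits to call either. DESeq2 called Ccnd2 in all 6 fits without 1 tumour (largest adjusted p = 0.0468). It called Ccnd3 in only 1 of them, with a DESeq2 adjusted p of 0.175 without MiRNC640 and of 0.238 at most.

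To compare levels between genes, CPM was divided by the exonic length in kb, the union of all annotated exons of the gene. This union can be longer than a single transcript. For Ccnd3 it was 8775 bases, although the longest annotated 3' UTR has 915. Shares, ratios and ranks between genes on the per kb scale depend on this divisor. On that scale Ccnd1 made up 83.5% to 90.2% of the summed D cyclin level in miR155KO_Nf1KO and 86.6% to 89.1% in Nf1KO. Ccnd2 held 7.43% to 14.7% and 9.52% to 11.9%, so the shares of Ccnd1 and Ccnd2 overlapped between the groups. The share of Ccnd3 was small but apart, at 1.89% to 2.32% in miR155KO_Nf1KO and 1.31% to 1.48% in Nf1KO. The summed level was 115.7 ± 5.66 CPM per kb in miR155KO_Nf1KO and 292.9 ± 82.3 CPM per kb in Nf1KO (SD, n = 3 each), a ratio of means of 2.53. These shares and sums are descriptions with no test.

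**Figure D1:**
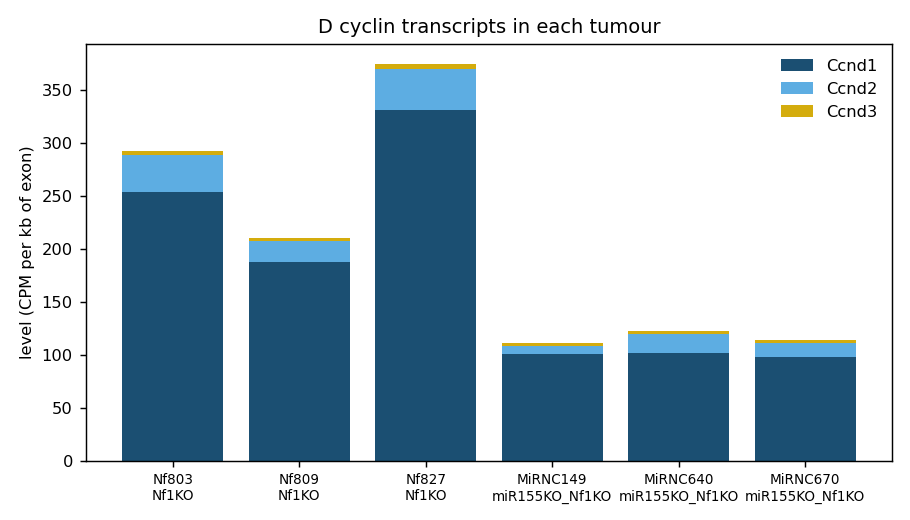
Summed level of the 3 D cyclin transcripts in each tumour, in CPM per kb of exon, with the 3 Nf1KO tumours on the left and the 3 miR155KO_Nf1KO tumours on the right. Each bar is 1 library and its colours split it by gene; Ccnd1 fills 83.5% to 90.2% of every bar, and the miR155KO_Nf1KO bars end between 111.2 and 122 CPM per kb, below the lowest Nf1KO bar at 210.6.

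Of the kinases that D cyclins bind, Cdk6 fell and Cdk4 did not pass. Cdk6 (chromosome 5, 3341485 to 3531008, plus strand) was at 83.6, 119.3 and 96.4 CPM in MiRNC149, MiRNC640 and MiRNC670, and at 224.4, 143.1 and 339 CPM in Nf803, Nf809 and Nf827. The groups were apart, with MiRNC640 the highest of its group and Nf809 the lowest of the other. The edgeR log2 fold change of Cdk6 came to -1.24 (SE 0.31), and its adjusted p of 0.0476 was close to the threshold. The call was lost with sex as a covariate (edgeR adjusted p = 0.131), with robust estimation (0.0509), with limma voom (0.0615), and without any single tumour but Nf809 (0.0917 to 0.164). Without Nf827 the log2 fold change of Cdk6 was -0.88. DESeq2 called Cdk6 with all tumours (adjusted p = 0.00123) and without each in turn (0.022 at most).

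Cdk4 (chromosome 10) was at 11.0, 19.3 and 9.90 CPM in miR155KO_Nf1KO and at 17.4, 18.7 and 22.0 CPM in Nf1KO. MiRNC640 lay inside the range of Nf1KO, and the other tumours of its group lay below it. For Cdk4 the log2 fold change was -0.53 (SE 0.28, 95% interval -1.19 to 0.13; edgeR adjusted p = 0.283). Without MiRNC640 it was -0.89, with an adjusted p of 0.0826 by edgeR and 0.0104 by DESeq2, which then called Cdk4 lower. Per kb of exon, Cdk6 was 1.43 to 2.26 times the level of Cdk4 in miR155KO_Nf1KO and 1.77 to 3.59 times in Nf1KO. Cdk4 shares 641 exonic bases with Tspan31 on the opposite strand, so part of its low count may be uncertain.

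Rb1, whose protein is the substrate of these kinases (chromosome 14), was at 144.5, 176.5 and 167 CPM in miR155KO_Nf1KO and at 159.4, 148.9 and 156.8 CPM in Nf1KO. The ranges overlapped. For Rb1 the log2 fold change was 0.07 (SE 0.12, 95% interval -0.21 to 0.35; edgeR adjusted p = 0.76), an interval that leaves out a change as large as that of Ccnd1. Exons of Rb1 overlap those of Lpar6 and Rcbtb2 on the opposite strand by 408 and 488 bases.

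Of the inhibitors with a broad reach over the kinases, neither passed the test. Cdkn1a (p21, a p53 target; chromosome 17) was at 196, 116.8 and 143.9 CPM in miR155KO_Nf1KO and at 122.9, 165.5 and 142.1 CPM in Nf1KO. The lowest and the highest tumour were both of miR155KO_Nf1KO, and the log2 fold change was 0.09 (SE 0.21, 95% interval -0.41 to 0.58; edgeR adjusted p = 0.84). It turned negative without MiRNC149 (-0.13) or Nf803 (-0.046). Cdkn1b (p27, which holds resting cells out of the cycle; chromosome 6) was at 48.2, 36.7 and 46.0 CPM against 30.6, 34.4 and 25.8 CPM. The groups were apart, with MiRNC640 only just above Nf809. The log2 fold change of Cdkn1b was 0.53 (SE 0.18, 95% interval 0.11 to 0.95), with an edgeR adjusted p of 0.112 and a range of 0.0705 to 0.291 over edgeR fits without 1 tumour. Per kb of exon, Ccnd1 was 9.47 to 12.6 times the level of Cdkn1b in miR155KO_Nf1KO and 24.8 to 58.4 times in Nf1KO, a description with no test.

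Of the INK4 inhibitors, Cdkn2b fell and Cdkn2a was the least abundant member. Cdkn2b (chromosome 4, 89306299 to 89311039, minus strand), whose protein p15 is known as an effector of TGF-beta arrest, was at 6.31, 3.985 and 5.15 CPM in MiRNC149, MiRNC640 and MiRNC670. It was at 21.2, 11.1 and 17.7 CPM in Nf803, Nf809 and Nf827, again with Nf809 the lowest and the groups apart. These levels rest on 98, 59 and 65 reads against 292, 180 and 265. The log2 fold change was -1.69 (SE 0.31), the largest decrease among the 9 members tested, with an edgeR adjusted p of 0.0259. The edgeR call was lost without MiRNC640 (adjusted p = 0.0732), MiRNC670 (0.102), Nf803 (0.0946) or Nf827 (0.081), while DESeq2 called it in every such subset (largest adjusted p = 0.00434).

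Cdkn2a (chromosome 4, 89274471 to 89294653, minus strand) was close to the limit of detection and was not tested, since it failed the low-count filter. It had 19, 0 and 2 reads in MiRNC149, MiRNC640 and MiRNC670, and 7, 2 and 26 in Nf803, Nf809 and Nf827. The count of 0 in MiRNC640 allows up to 0.203 CPM (3 reads), for counting error only. High and low tumours occurred in both groups, and the males, MiRNC640, MiRNC670 and Nf809, had 2 reads or fewer, an observation made after the values were seen. The pooled reads, 21 against 35, gave a ratio of 0.627 (95% exact binomial interval 0.347 to 1.11), which covers counting error only, not the spread between tumours. With no filter, edgeR gave a log2 fold change of -0.75 (SE 1.38, adjusted p = 0.79). The RefSeq promoter table lists a pair of starts for this gene, and the count per symbol sums their transcripts, so p16 and p19Arf cannot be told apart here.

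**Figure D2:**
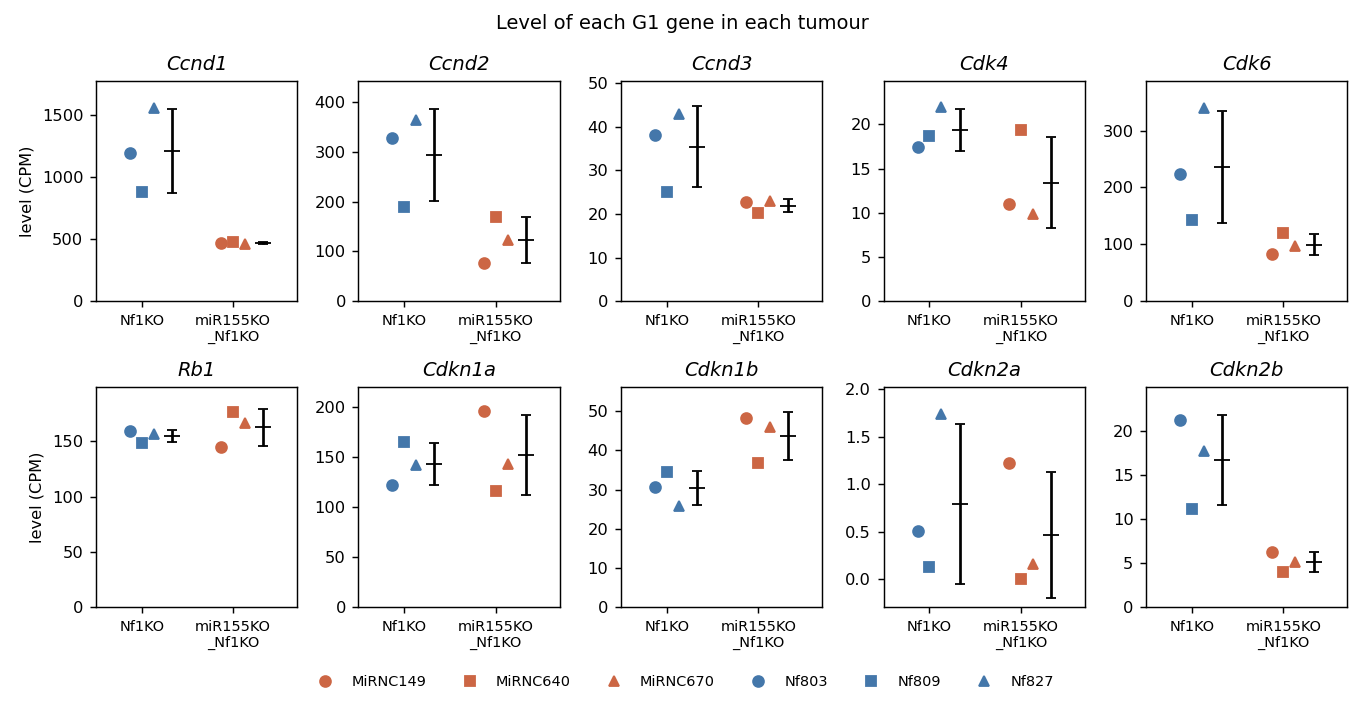
Level of each of the 10 genes in each tumour, in CPM on a linear axis that differs between panels, with Nf1KO in blue, miR155KO_Nf1KO in orange and 1 marker per tumour. The bar beside each group is the mean ± SD of its 3 tumours; for Ccnd1, Ccnd2, Ccnd3, Cdk6 and Cdkn2b every orange point lies below every blue one, for Cdkn1b above, and for the other 4 the ranges overlap.

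Counted together, 9 of the 10 members passed the low-count filter and 3 were called lower by edgeR, where 4.74% of all genes tested were (5.22% higher, 9.96% in either direction). With edgeR, 0 members were called higher, with 1 (Cdkn1b) at an unadjusted p under 0.05, and DESeq2 and limma voom also called 0. The groups did not overlap downward in 5 of the 9, against 16.3% of all genes, and upward in 1, also against 16.3% (32.6% in either direction). The median log2 fold change of the 9 was -0.69, against 0.01 over all genes tested. DESeq2, which called 8.06% of its genes lower and 8.25% higher, called 5 members lower: the 3 D cyclins, Cdk6 and Cdkn2b. With edgeR, 0 members were called lower without MiRNC640, MiRNC670, Nf803 or Nf827, and without each of the last 3 named no gene of the whole table was called. At an unadjusted p under 0.05 there were then 1778 lower and 1462 higher genes without MiRNC670, 1755 and 1580 without Nf803, and 1580 and 1685 without Nf827. Without MiRNC670 and Nf809 together edgeR called 4 members lower, Ccnd1, Ccnd3, Cdk6 and Cdkn2b.

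**Figure D3:**
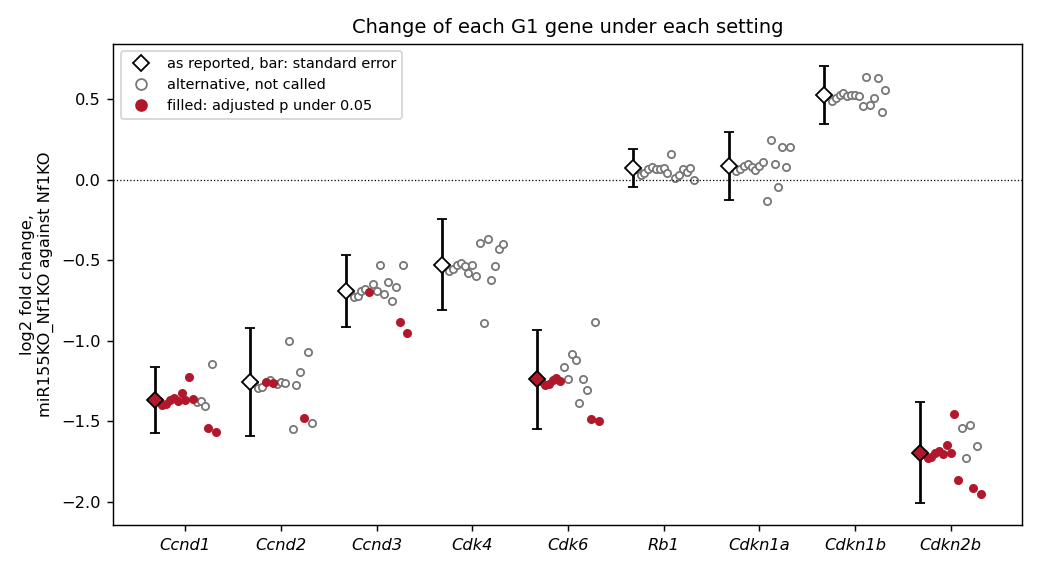
Log2 fold change of the 9 tested genes, miR155KO_Nf1KO against Nf1KO, as reported (diamond, bar: standard error) and under other processing settings and subsets of tumours (circles), filled where the adjusted p was under 0.05. Ccnd1 stays between -1.56 and -1.14 and Cdkn2b between -1.95 and -1.46, each with filled and open circles; Cdkn1a and Rb1 lie around 0.

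By level per kb, Ccnd1 came first and Cdkn1a second in both groups, and their ranges did not overlap in either. Cdkn2a was last in both. In miR155KO_Nf1KO the order went on with Rb1, Ccnd2, Cdkn1b, Cdk6, Cdk4, Cdkn2b and Ccnd3, from 27.04 ± 2.735 CPM per kb for Rb1 to 2.50 ± 0.17 for Ccnd3 (SD, n = 3). Neighbours overlapped there for Ccnd2 with Cdkn1b, Cdkn1b with Cdk6, and Cdk4 with Cdkn2b. In Nf1KO the order was Ccnd2, Rb1, Cdk6, Cdkn2b, Cdkn1b, Cdk4 and Ccnd3, from 31.2 ± 9.85 for Ccnd2 to 4.034 ± 1.054 for Ccnd3. There Cdkn1a overlapped with Ccnd2, Ccnd2 with Rb1, Cdk6 with Cdkn2b, and Cdkn1b with Cdk4. Cdkn2b stood at 3.70 ± 0.84 CPM per kb in miR155KO_Nf1KO, below Cdkn1b (9.59 ± 1.35), and at 12.01 ± 3.68 in Nf1KO, above Cdkn1b (6.66 ± 0.95).

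The genes nearest in pattern to the 3 called members were ranked by the root mean square difference of log2 CPM, centred on each gene's mean, over the 6 tumours. For Ccnd1 they were Lacc1 (0.075 log2 units), Hvcn1 (0.081), Baz1a (0.10) and Srgn (0.11). For Cdk6 they were Cmah (0.092), Traf1 (0.11), Psme2b (0.12) and Kcnn4 (0.13). For Cdkn2b they were Casq2 (0.14), Sdc1 (0.15), Postn (0.15) and Dapp1 (0.18). The likeness includes the difference between groups, so these genes share that difference by the way they were found.

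Downstream of the members, genes of the E2F programme were mostly lower, with few calls. As a reference for this list and those below, edgeR called 4.74% of all 15604 genes lower and 5.22% higher. At an unadjusted p under 0.05 there were 2052 lower and 2111 higher genes, and 49.5% of all genes had a negative log2 fold change. Of 20 E2F target genes tested, 2 fell and 0 rose by edgeR (7 at an unadjusted p under 0.05). A negative log2 fold change was seen in 19, with a list median of -0.58. The genes that fell were Mybl2, a transcription factor of cycling cells (2.19 ± 0.37 to 0.445 ± 0.051 CPM; log2 fold change -2.28, SE 0.46), and Rrm2, a ribonucleotide reductase subunit (4.21 ± 0.12 to 1.55 ± 0.35 CPM; -1.44, SE 0.35). Among 12 pocket protein and E2F factor genes, E2f8, a repressor that is itself made in cycling cells, fell, with a log2 fold change of -2.02 (SE 0.44) and means of 18.9 ± 5.75 CPM in Nf1KO and 4.70 ± 2.58 in miR155KO_Nf1KO. The list median was -0.12. In the mitosis and proliferation list 5 of 16 fell and all 16 had a negative log2 fold change, with a median of -1.38. Its genes with the smallest p were Mki67 (-1.56, SE 0.20), the mitotic cyclin gene Ccnb1 (-2.79, SE 0.36), Top2a (-1.49, SE 0.26) and Cenpe (-1.08, SE 0.24). The adjusted p of these 7 genes ran from 0.0194 to 0.0473 (edgeR, adjusted by Benjamini-Hochberg). Some of them rest on few reads in MiRNC149, MiRNC640 and MiRNC670. Mybl2 had 6, 7 and 6 reads there, against 29, 42 and 28 in Nf803, Nf809 and Nf827. Ccnb1 had 14, 11 and 11 against 63, 96 and 105, and Rrm2 26, 17 and 23 against 58, 70 and 61. These lists were chosen with earlier results of these data known.

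The next step of the cycle, at Cdk2, showed no call by edgeR. Of 11 tested genes of the E cyclin and Cdk2 list, 0 were called (1 at an unadjusted p under 0.05, and 1 called lower by DESeq2), and the median was -0.42. The smallest p was that of Ccna2 (cyclin A2), with a log2 fold change of -1.29 (SE 0.37; edgeR adjusted p = 0.0726). Of the 3 other inhibitor genes, Cdkn2c, Cdkn2d and Cdkn1c, 0 were called by edgeR or DESeq2 and 0 had an unadjusted p under 0.05. Cdkn2d (p19Ink4d) had the smallest p of these, with a log2 fold change of 0.26 (SE 0.29; edgeR adjusted p = 0.631).

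Upstream, 0 of 16 tested genes of the cyclin D transcription inputs were called by edgeR (6 at an unadjusted p under 0.05, 3 called lower by DESeq2), with a median of -0.39. Etv5, an ETS factor made in response to ERK signals, had a log2 fold change of -0.51 (SE 0.13; edgeR adjusted p = 0.0525). In the cyclin D and p27 stability list of 14 tested genes, 4 had an unadjusted p under 0.05 and DESeq2 called 2 higher. The list median was 0.06, and by edgeR 0 genes fell and 1 rose. It was Fbxo31, a ubiquitin ligase subunit known to target cyclin D1, from 12.2 ± 1.41 to 27.5 ± 3.80 CPM (log2 fold change 1.16, SE 0.18; edgeR adjusted p = 0.0224). Its levels were 30.8, 23.3 and 28.3 CPM in the miR155KO_Nf1KO tumours and 12.1, 13.7 and 10.9 CPM in the Nf1KO tumours, with the groups apart. Of the 3 p53 and Mdm genes 0 were called by edgeR (2 at an unadjusted p under 0.05, 1 called lower by DESeq2). Trp53 had a log2 fold change of -0.45 (SE 0.12; edgeR adjusted p = 0.0631). The list of Polycomb genes acting on Cdkn2a held 12 genes, including the demethylases Kdm6a and Kdm6b, which work against Polycomb silencing. Of the 12, 0 were called by edgeR or DESeq2 and 0 had an unadjusted p under 0.05. Their median was 0.01, and Pcgf2, with the smallest p, had 0.35 (SE 0.20; edgeR adjusted p = 0.319).

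**Figure D4:**
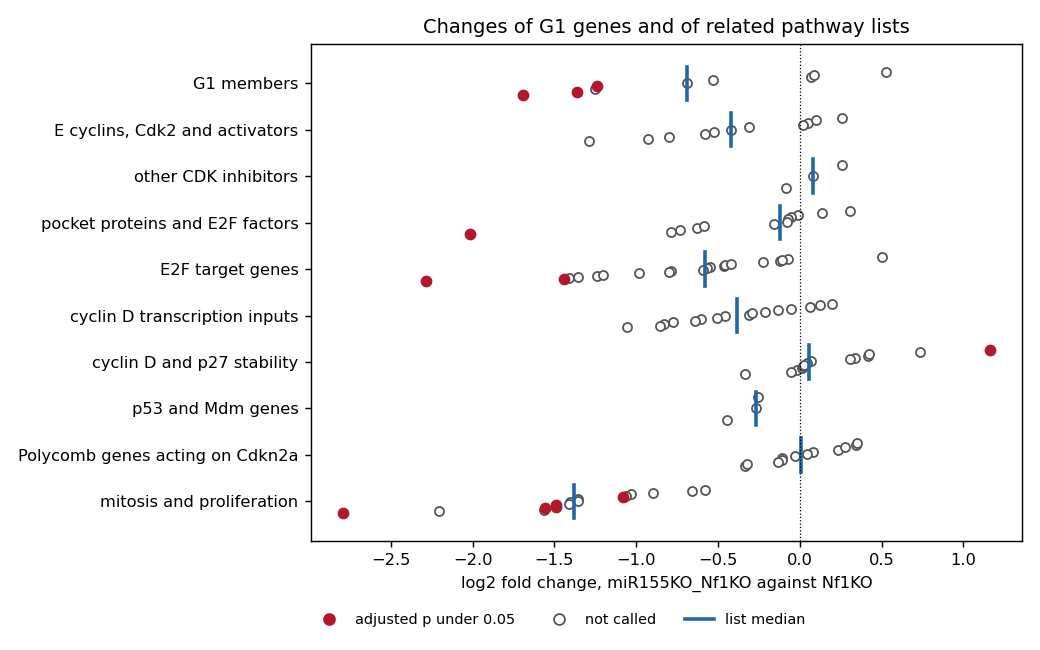
Log2 fold change (miR155KO_Nf1KO against Nf1KO, horizontal axis) of every tested gene in the 10 members' list and 9 related lists (rows), red where the adjusted p was under 0.05, with a blue bar at each list's median. The mitosis list has a median of -1.38 and no gene above 0, the members a median of -0.69, and the Polycomb list a median of 0.01.

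The tissue makeup differed between the groups along with these genes, and its part in the results was not tested. Macrophage markers summed to 464.2 to 907.9 CPM in miR155KO_Nf1KO and 1316 to 2517 CPM in Nf1KO, with 6 of 13 called lower. Dendritic cell markers summed to 197.1 to 322.9 against 663.7 to 2598 CPM (6 of 8 called lower) and fibroblast markers to 6062 to 8294 against 14330 to 16690 CPM (6 of 11 called lower). Sensory neuron markers summed to 5546 to 8797 against 1367 to 2710 CPM (7 of 12 called higher), and myelin markers to 10220 to 21490 against 5436 to 6417 CPM (8 of 10 called higher). The general Schwann cell markers, which check the labelled tissue, summed to 2914 to 3547 CPM in miR155KO_Nf1KO and 2511 to 2637 CPM in Nf1KO, with 1 of 10 called higher. Sums of T cell markers were 4.44 to 8.55 against 11.6 to 49.2 CPM, of mast cell markers 75.7 to 85.9 against 48.6 to 99.9, of endothelial markers 198.3 to 385.6 against 222.6 to 302, and of adipocyte markers 103.3 to 2175 against 40.4 to 350.6, with 0 genes called by edgeR in these 4 lists. At an unadjusted p under 0.05 there were 3 of 4 tested T cell markers (2 called lower by DESeq2), 1 of 9 endothelial markers and 0 mast cell or adipocyte markers. DESeq2 called 0 in the last 3 lists. Every marker of these lists with a row in the table had reads in at least 1 tumour. Among the Nf1KO tumours, Nf809 had the smallest macrophage, dendritic cell and fibroblast sums and also the lowest Ccnd1, Ccnd2, Ccnd3, Cdk6 and Cdkn2b. Among the miR155KO_Nf1KO tumours, MiRNC640 had the smallest of these sums, with the highest Ccnd1, Ccnd2 and Cdk6 and the lowest Ccnd3 and Cdkn2b. MiRNC149 had the largest of these sums there, with the lowest Ccnd2 and Cdk6 and the highest Cdkn2b. Nf809 differed from the other Nf1KO tumours in further ways. It was male, and it had the largest skeletal muscle sum (2459 CPM) and sensory neuron sum (2710 CPM) of its group. MiRNC640 likewise had the largest adipocyte (2175 CPM) and myelin (21490 CPM) sums of its group. In bulk RNA, fewer cells of a type and less RNA per cell cannot be told apart.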

How the data were processed

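Counts per gene symbol came from 1 table that the authors deposited, with 1 column per tumour, whole numbers that were not scaled. HISAT2 (2.0.5), the counter featureCounts (1.5.2) and mm10 are named in the submitters' processing notes; for annotation, strand setting and multi-mapping reads, the sources used here give nothing. Genes were tested with edgeR 4.0.16 in R 4.3.3 (quasi-likelihood, two-sided, filterByExpr with minimum count 10 and total 15, TMM scaling, Benjamini-Hochberg adjustment over 15604 genes, calls at adjusted p under 0.05). The F statistic gives the standard errors, and 95% intervals use its median degrees of freedom, 7.29. DESeq2 1.42.0 and limma 3.58.1 (voom), other scalings and filters, sex as a covariate and subsets of tumours were alternatives. The fits were tested on simulated counts, which held no differences in tissue makeup or sex and so do not test the calls given here. Exon lengths, coordinates (1-based) and 3' UTRs came from GENCODE M21 (GRCm38, the assembly of mm10). Between replicates of a group, squared count deviations averaged over genes were at least 23.3 times those of Poisson sampling. Counts were scaled there by column totals only. The members and lists were chosen with earlier results of these data known. Mir155hg, Nf1 and Dhh were named as checks of the labels. The genes named from the pathway lists and by pattern follow 1 rule: in each pathway list up to 4 called genes by smallest p, or the 1 with the smallest p where none was called, plus the 4 genes nearest in pattern to each called member (mean log2 CPM of at least 1, prior count 2, no predicted genes). The neighbours of Cdkn2a and Cdkn2b were chosen by position, after their values were seen.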

Additional observations from a re-analysis of the deposited data

How the results depend on the processing

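Across 17 planned and 6 added alternatives, the decreases of Ccnd1, Cdk6 and Cdkn2b kept their sign in all. They kept their call in 53 of 69 values and lost it in 16. That tally includes the adjusted p threshold of 0.10, at which no call can be lost, and the 6 DESeq2 subsets added after the data were seen. In the 6 edgeR fits without 1 tumour, Ccnd1 was called in 2, Cdk6 in 1 and Cdkn2b in 2. Members called lower numbered 3 as reported, 5 by DESeq2 and 5 at an adjusted p under 0.10. They ranged from 0 to 5 over edgeR fits without 1 tumour and from 4 to 5 over DESeq2 fits without 1 tumour. Members called higher were 0 in each edgeR fit and 0 to 1 in the DESeq2 fits without 1 tumour, where Cdkn1b was called without MiRNC640 or Nf809. Over all genes, 815 were called higher and 739 lower. DESeq2 called 1469 higher and 1435 lower, a threshold of 0.10 gave 1383 and 1319, and sex as a covariate 534 higher. Without 1 tumour edgeR called 0 to 1183 higher and 0 to 1059 lower, and DESeq2 852 to 1721 and 897 to 1561 (1605 and 1526 without MiRNC149). Signs turned only for members that did not pass: Cdkn1a to -0.13 (edgeR) and -0.14 (DESeq2) without MiRNC149 and to -0.046 and -0.030 without Nf803 (edgeR range without 1 tumour -0.13 to 0.24), and Rb1 to -0.0049 without MiRNC670 and Nf809. The cause was not tested. No paired analysis was possible because the groups share no replicate number. Depth limits Cdkn2a, where 3 reads stand for 0.185 to 0.238 CPM.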

Other observations

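The genes around Cdkn2a and Cdkn2b on chromosome 4 were also read out. The reason is that the human counterpart of this locus is often deleted as a block in atypical nerve sheath tumours. Within 1 Mb of the pair, and apart from Cdkn2b, 5 genes were tested, and they were named after their values were seen. Mtap, on the Cdkn2a side, which encodes a phosphorylase that salvages methionine, was at 20.7, 22.3 and 17.8 CPM in MiRNC149, MiRNC640 and MiRNC670 and at 39.9, 19.1 and 22.4 CPM in Nf803, Nf809 and Nf827. Its log2 fold change was -0.42 (SE 0.29, edgeR adjusted p = 0.413). Every tumour had reads of Mtap, MiRNC640 with its 0 reads of Cdkn2a included. Other cells of the tumour also give Mtap reads, so these reads cannot show whether some cells lost the locus, which was not tested. Klhl9 (0.07, SE 0.11) and Focad (-0.24, SE 0.18) did not pass either, and Hacd4, an enzyme of very long chain fatty acid synthesis, fell by 0.91 on the log2 scale (SE 0.20; edgeR adjusted p = 0.0352). Dmrta1, on the Cdkn2b side, had a log2 fold change of -1.71 (SE 0.57; edgeR adjusted p = 0.106), at 0.396 to 1.15 CPM in miR155KO_Nf1KO and 1.92 to 4.36 CPM in Nf1KO.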
